A study of Venturia canescens with 18 samples.

Results

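A set of 77 transcribed loci was low to nearly absent in the head RNA of Venturia canescens females courted by a brother. This held in all 3 brother pools, relative to the mean of the pools of isolated females. V. canescens is a parasitoid wasp. The loci were chosen by a rule on measured levels. The mean over the 3 isolated pools had to be at least 0.5 CPM (counts scaled to a common pool total), and each of the 3 brother pools had to lie below 0.25 times that mean. The 77 were found among 16752 loci in the table, of which 12503 had an isolated mean of at least 0.5 CPM, so they made up 0.616% of the loci that could qualify. The low level in the brother pools is therefore the criterion and not a finding. The 3 pools of females courted by an unrelated male took no part in the choice.

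The study asked how the head transcriptome of a female responds to a mate she should avoid. The brother group held virgin, newly emerged females, each boxed with a brother (an incompatible male) for at most 10 min, and the unrelated group held such females boxed for the same time with an unrelated, compatible male. The isolated group, the control, held such females boxed with no male. All descended from wasps collected in the wild and kept on the moth Ephestia kuehniella, and heads were pooled, 10 per condition, before RNA was extracted, per the labels' protocols. Each group had 3 biological replicates, called pools here, and each pool was sequenced as 2 technical replicates. The protocols do not say whether the number of heads is per replicate or whether the replicates are independent by family or day, and p-values here cover no more than the spread among these pools. The groups held different females, so courtship and a difference between the females used cannot be told apart. In pooled tissue, fewer cells of a type and less RNA per cell cannot be told apart either.

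In wasps that reproduce sexually, females develop from fertilised and males from unfertilised eggs. In species with complementary sex determination, V. canescens among them, a female needs different alleles at the sex-determining locus, and matings between siblings can yield diploid males, which is why avoidance of a brother as a mate is studied in them. The loci carry XLOC identifiers of the kind that the assembler Cufflinks writes. The species' RefSeq gene table holds 0 of these identifiers, and the deposited table has no column for a name, function, length or position. No function is therefore given for any member, and the tissue could not be checked against marker genes. CPM is not divided by transcript length, so an order of loci by CPM is not an order of transcript number.

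The pools held 62341897 to 103527471 counts, from libraries of 22079293 to 67940613, so a floor of 3 counts corresponded to 0.029 to 0.0481 CPM. Amplified reads that carry no molecular identifier are not independent molecules, so floors and intervals include counting error alone. Brother pool 1 stood apart from the other pools over all loci. edgeR's common biological coefficient of variation was 13.7% without it, against 26.3% with all pools. With brother pool 1 left out the rule found 110 loci in place of 77; the 77 are among them by construction, since the rule asks for a low value in every brother pool.

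**Figure D1:**
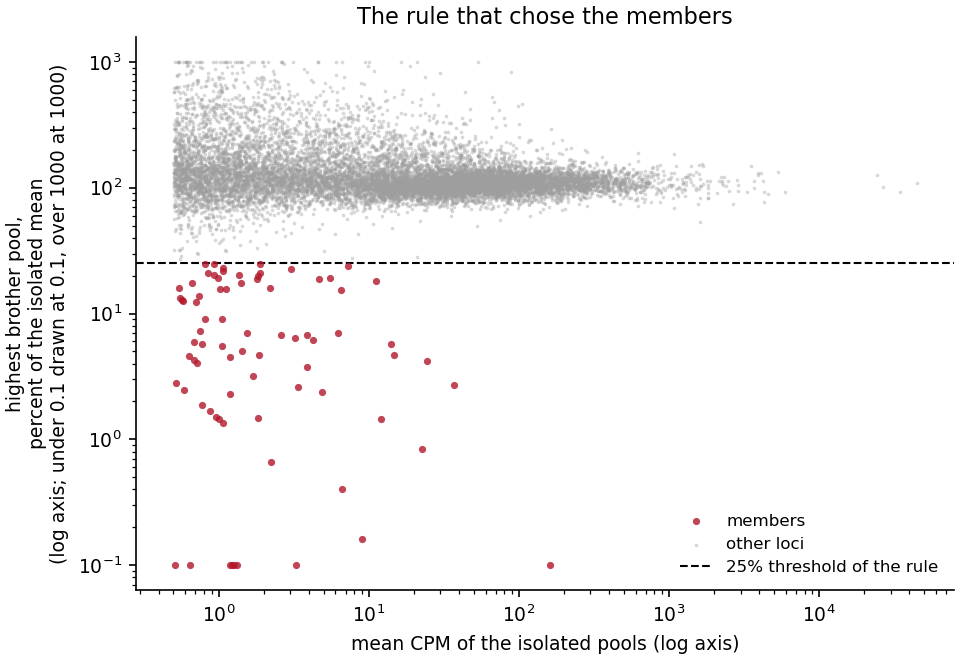
Mean CPM over the isolated pools (x axis, log scale) against the highest of the 3 brother pools as a percentage of that mean (y axis, log scale, extreme values drawn at the ends of the scale) for the 12503 loci with an isolated mean of at least 0.5 CPM. The 77 members lie below the dashed threshold at 25%, and 5 loci lie between 25% and 30%.

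Few loci lay just outside the threshold, but there was no clear gap at it. The ranges given next differ in width. Of the loci with enough counts, 77 had their highest brother pool under 25% of the isolated mean, 5 lay from 25% to 30%, 18 from 30% to 40% and 40 from 40% to 50%. The members just inside the threshold were XLOC_015813, XLOC_000225 and XLOC_007634, whose highest brother pools stood at 24.6%, 24.7% and 25.0% of the isolated mean. Just outside it were XLOC_010718, XLOC_013655 and XLOC_007113, with highest brother pools at 27.1%, 27.4% and 28.0%. The loci on either side of the threshold thus differed little, and XLOC_007113 was among the more abundant of them, with an isolated mean of 20.9 CPM.

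Most members were low in abundance. Their isolated means had a median of 1.27 CPM, against 16.1 CPM for all 12503 loci. An isolated mean from 0.5 to 1 CPM was found for 26 members, from 1 to 5 CPM for 37, from 5 to 20 CPM for 10 and above 20 CPM for 4. The 77 together made up 12.8, 11.4 and 14.0 CPM in brother pools 1 to 3. They made up 142, 551 and 390 CPM in unrelated pools 1 to 3, and 424, 417 and 459 CPM in isolated pools 1 to 3. The unrelated pools therefore spanned a range that reached above all isolated pools and far below them. Without XLOC_010657, the most abundant member, the sums were 12.7, 11.2 and 14.0 CPM in brother pools, 76.8, 367 and 261 CPM in unrelated pools and 273, 262 and 282 CPM in isolated pools, with the same order of the 3 unrelated pools.

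**Figure D2:**
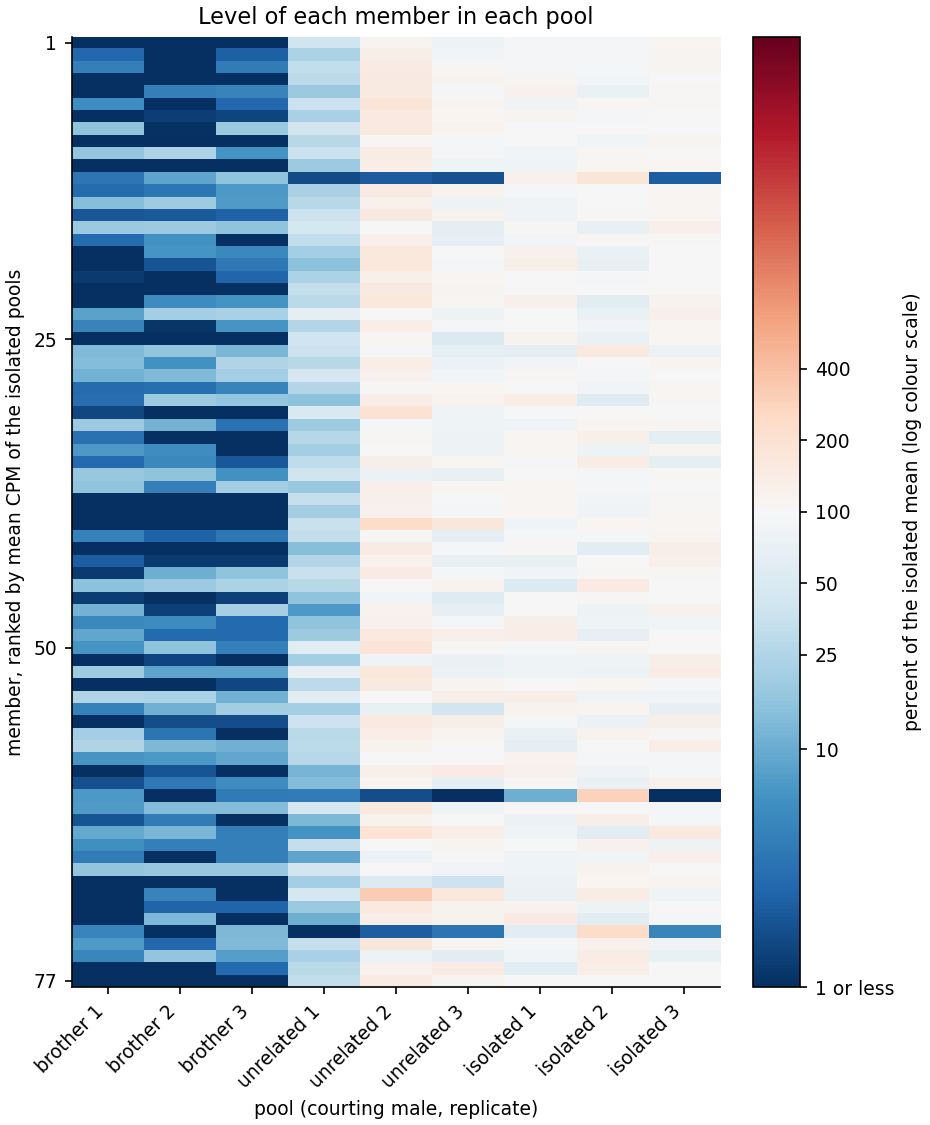
Level of each of the 77 members (rows, ranked by the mean CPM of the isolated pools) in each of the 9 pools (columns), as a percentage of the member's own isolated mean on a log colour scale, with values of 1% or less in the darkest blue. Brother pools are blue throughout by the rule, and unrelated pool 1 is pale blue in most rows. Unrelated pools 2 and 3 resemble the isolated pools in most rows. In 3 rows every unrelated pool lies below 25%. Some other rows are a paler blue in all unrelated pools, among them XLOC_003147 at 21.2%, 53.9% and 39.0%.

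XLOC_010657 stood at 0.135, 0.160 and 0.0583 CPM in brother pools 1 to 3. It stood at 65.3, 183 and 129 CPM in unrelated pools 1 to 3 and at 151, 155 and 178 CPM in isolated pools 1 to 3. Its brother pools rested on 10, 11 and 4 counts, against 4299 or more in each unrelated pool. Unrelated pool 1 was the lowest of the pools outside the brother group, and unrelated pool 2 lay above all isolated pools.

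XLOC_001315 had 1.00, 0.248 and 0.860 CPM in brother pools, 8.63, 48.1 and 33.0 CPM in unrelated pools and 35.3, 34.2 and 42.1 CPM in isolated pools. XLOC_004800 had 1.03, 0.248 and 0.977 CPM in brother pools, 7.81, 35.3 and 25.8 CPM in unrelated pools and 23.1, 22.7 and 27.2 CPM in isolated pools. In both loci brother pool 2 was the lowest of the brother pools and unrelated pool 2 the highest of all 9. XLOC_004854 had 0.190, 0.0728 and 0.146 CPM in brother pools, 6.69, 34.0 and 26.4 CPM in unrelated pools and 25.7, 19.9 and 22.4 CPM in isolated pools. Its unrelated pools 2 and 3 both lay above the isolated pools while unrelated pool 1 lay below them.

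XLOC_014164 had 0.0406, 0.626 and 0.685 CPM in brother pools, 2.63, 22.7 and 13.5 CPM in unrelated pools and 17.7, 10.7 and 15.8 CPM in isolated pools. Here brother pool 1 was the lowest brother pool, with 3 counts, and isolated pool 2 the lowest isolated pool. XLOC_012214 had 0.813, 0.0582 and 0.379 CPM in brother pools, 5.26, 24.8 and 16.3 CPM in unrelated pools and 12.1, 15.4 and 14.8 CPM in isolated pools. XLOC_011845 had 0.0542, 0.160 and 0.175 CPM in brother pools, 2.75, 18.3 and 13.1 CPM in unrelated pools and 13.5, 10.9 and 11.8 CPM in isolated pools. In all of these loci the unrelated pools kept one order, pool 1 lowest and pool 2 highest.

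**Figure D3:**
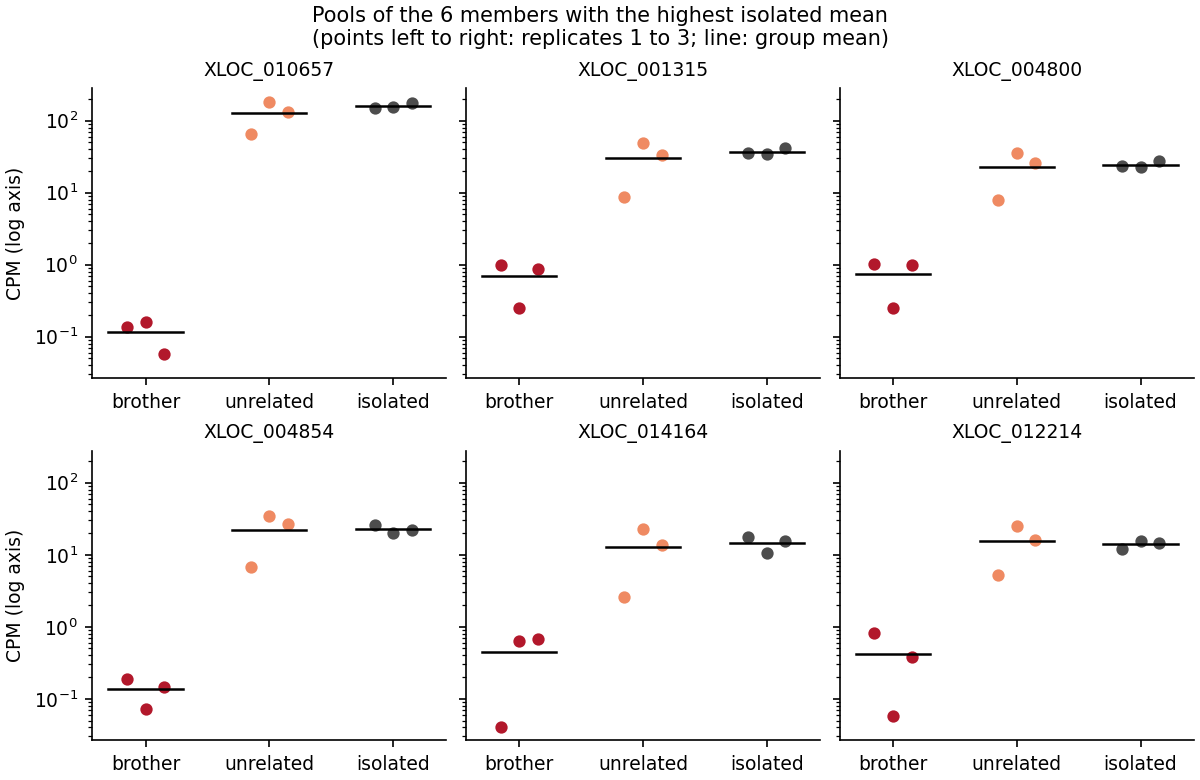
CPM (log axis) of the 6 members with the highest isolated mean, in the brother, unrelated and isolated pools. Points are replicates 1 to 3 from left to right and lines are group means; in each panel unrelated pool 1 lies below unrelated pools 2 and 3 and above all brother pools.

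The brother pools were not all empty of these transcripts. Over the 3 brother pools, 7 members had no counts, 13 had 1 to 3, 23 had 4 to 19 and 34 had at least 20 counts, and 52 members had counts in each of the brother pools. By summed counts the brother level was under 1% of the isolated level for 18 members, 1% to 10% for 39 and 10% or more for 20, with a median of 3.74%. Across the 77 members, Spearman's rho between the brother and isolated mean CPM was 0.534. This value is a description, since all points share the same libraries and the rule caps the brother level at a share of the isolated one.

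The members with no brother counts that had the highest isolated means were XLOC_005680, XLOC_008105 and XLOC_010071. XLOC_005680 had 0 counts in brother pools, 1.11, 4.93 and 3.73 CPM in unrelated pools and 3.29, 3.23 and 3.28 CPM in isolated pools. A count of 0 allows up to 3 counts, and with 3 counts taken over the brother pools XLOC_005680 was at least 240-fold lower in brother than in unrelated pools. The same bounds were at least 84.0-fold lower for XLOC_008105 and at least 73.5-fold lower for XLOC_010071. XLOC_008105 had 0.456, 1.68 and 1.29 CPM in unrelated pools and 1.40, 1.17 and 1.42 CPM in isolated pools, and XLOC_010071 had 0.258, 1.53 and 1.18 CPM in unrelated pools and 1.38, 1.07 and 1.36 CPM in isolated pools.

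Where counts were left in the brother pools, the pools differed among themselves. Among the 34 members with at least 20 brother counts, the highest brother pool exceeded the lowest by a median of 3.84-fold, and by over 4-fold in 17 of them. Brother pool 1 was the lowest in 14, brother pool 2 in 10 and brother pool 3 in 10. The widest spread among them was that of XLOC_014504, a locus named after its values were seen. XLOC_014504 had 1.77, 0.116 and 2.01 CPM in brother pools, 4.76, 17.2 and 12.9 CPM in unrelated pools and 10.8, 11.1 and 11.4 CPM in isolated pools. Its highest brother pool was 17.3 times its lowest, while its isolated pools lay close together.

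In the unrelated pools, which the rule did not use, 74 of the 77 members were present in at least 2 pools, counted as at or above 0.25 times the isolated mean. This held in all 3 unrelated pools for 45 members, in pools 2 and 3 but not in pool 1 for 29, and in no unrelated pool for 3. Of all 12503 loci, 61, 19 and 27 lay below that level in unrelated pools 1 to 3, and 32, 3 and 3 of these were members. Presence in unrelated pools 2 and 3 was thus usual for loci of any kind. Over all 77 members the median level was 28.1%, 126% and 95.2% of the isolated mean in unrelated pools 1 to 3. The same median for the other loci with an isolated mean of at least 0.5 CPM was 99.6%, 101% and 101%. The mean of the 3 unrelated pools had a median of 84.1% of the isolated mean over the members and 101% over the other loci. It was 112% over the members without unrelated pool 1 and 63.5% without unrelated pool 2.

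**Figure D4:**
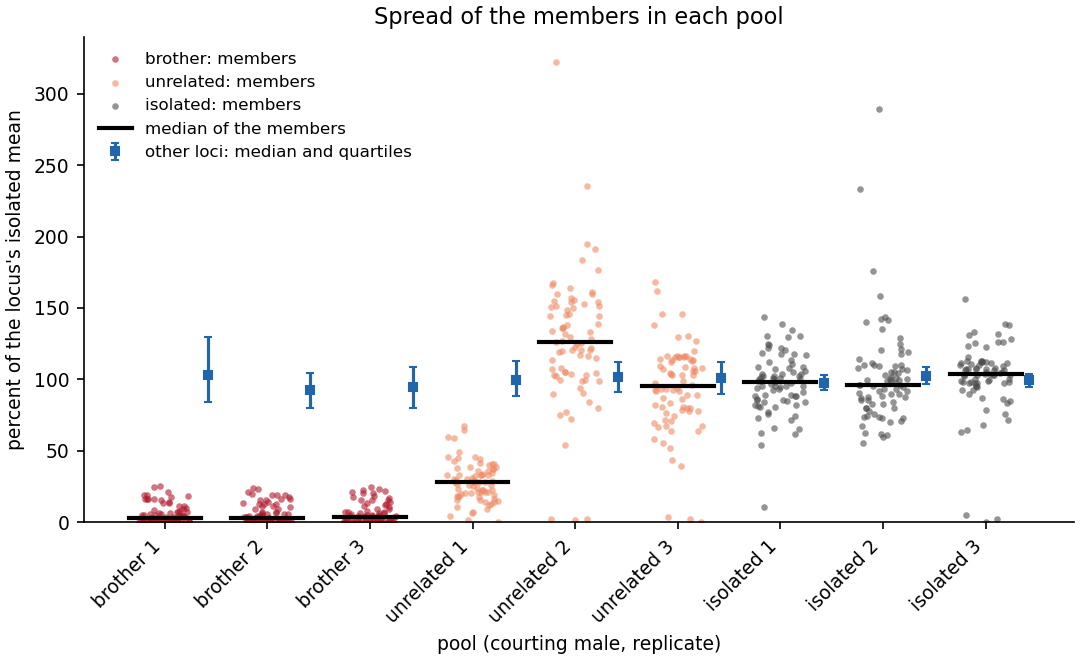
Level of the 77 members (points) in each pool as a percentage of the member's isolated mean, with the median of the members (black bar) and the median and quartiles of the other loci with an isolated mean of at least 0.5 CPM (blue squares). The members' median is 28.1% in unrelated pool 1, 126% in unrelated pool 2 and 95.2% in unrelated pool 3, while the other loci's medians lie between 92.6% and 103% in all pools.

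Unrelated pool 1 was thus low for nearly the whole set. It was the lowest of the unrelated pools for 76 of the 77 members, and so it was for 40.7% of the 12503 loci. The order of pool 1 below pool 3 below pool 2 held for 68 members, and for 21.0% of the 12503 loci. Unrelated pool 1 was under 50% of the mean of unrelated pools 2 and 3 for 69 members, and for 234 of the 12503 loci, or 1.87%. Over the 74 members present in unrelated pools 2 and 3, pool 1 had a median of 25.6% of the mean of the other two, with quartiles of 17.6% and 31.9% and a range of 3.92% to 71.3%. The highest of these values belonged to XLOC_007094 and the lowest to XLOC_010600, both named after their values were seen.

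**Figure D5:**
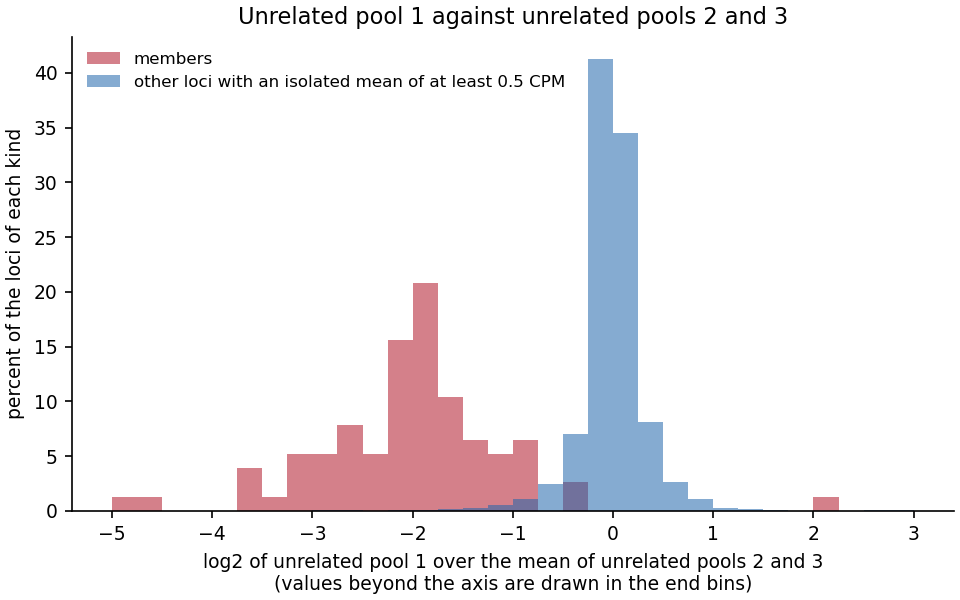
Log2 of unrelated pool 1 over the mean of unrelated pools 2 and 3 (x axis), as a percentage of loci (y axis), for the 77 members and for the other loci with an isolated mean of at least 0.5 CPM. The members centre near the log2 of 25.6%, while the other loci centre near 0.

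Among members with an isolated mean of at least 5 CPM, the 3 with the widest spread over unrelated pools were XLOC_014164, XLOC_011845 and XLOC_008477. XLOC_008477 had 0.0271, 0 and 0 CPM in brother pools, 1.23, 9.20 and 5.39 CPM in unrelated pools and 5.49, 7.34 and 7.16 CPM in isolated pools. Its brother value rested on 2 counts, and the summed counts put it 578-fold below the unrelated pools (exact 95% interval 160 to 4781). Set against single isolated pools, unrelated pool 1 lay below all 3 of them for 76 members, and for 34.5% of the 12503 loci. Unrelated pool 2 lay above all 3 for 42 members, and for 35.5% of the 12503 loci. Unrelated pool 3 lay within their range for 37 members, and for 4709 of the 12503 loci. It lay below all 3 for 25 members, and for 28.2% of the 12503 loci.

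The isolated pools were more even than the unrelated ones. For the 74 members present in unrelated pools 2 and 3, the isolated pools lay within 2-fold of each other in 64. Within an isolated mean of 0.5 to 5 CPM, 61 of these members had a median coefficient of variation of 61.5% over the unrelated pools and 22.6% over the isolated pools. The 4172 other loci in that range had 15.9% over the unrelated and 17.4% over the isolated pools. Over unrelated pools 2 and 3 alone, the medians were 20.1% for these members and 11.2% for the other loci.

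The 3 members that were low in all unrelated pools were XLOC_011560, XLOC_007260 and XLOC_006038, and they were also the members with the widest spread over isolated pools. XLOC_011560 had 0.230, 0.582 and 1.01 CPM in brother pools, 0.106, 0.141 and 0.116 CPM in unrelated pools and 7.91, 11.4 and 0.148 CPM in isolated pools. XLOC_007260 had 0.0542, 0 and 0.0292 CPM in brother pools, 0.0304, 0.0129 and 0 CPM in unrelated pools and 0.0802, 2.17 and 0 CPM in isolated pools. XLOC_006038 had 0.0271, 0 and 0.0729 CPM in brother pools, 0, 0.0129 and 0.0193 CPM in unrelated pools and 0.353, 1.32 and 0.0270 CPM in isolated pools. Their isolated mean rested on isolated pool 2, with isolated pool 1 for XLOC_011560 and XLOC_006038. Their isolated pool 3 was as low as courted pools, so these loci met the rule without being present in all isolated females' pools.

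The direct comparison of both courted groups asked whether the kind of male goes with a difference. The brother pools had entered the choice of members, so the counts below describe the set and lend it no support. In a fit of all 9 pools, 75 of the 77 members passed the filter on low counts; XLOC_007260 and XLOC_006038 did not. Against the unrelated pools, 27 of the 75 were called lower in brother pools (edgeR quasi-likelihood test, adjusted p under 0.05) and none higher, where 0.187% of all 15486 loci tested were called lower. The median log2 difference was -4.35 over the 75 members and 0.03 over all loci tested. At an unadjusted p under 0.05, 74 of the 75 were lower, and so were 546 of the 15486 loci tested. Every brother pool lay below every unrelated pool for 69 of the 75, and for 9.38% of the loci tested.

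Of the 27 called members, 20 were present in all 3 unrelated pools and 7 in pools 2 and 3, and 4 had no brother counts. The log2 difference of XLOC_010657, brother minus unrelated, was -9.99 with an SE of 0.51 (edgeR adjusted p = 0.000162). It was called under all 17 alternatives tried. XLOC_004854 differed by -7.29 ± 0.68 (edgeR adjusted p = 0.00947), and 4 alternatives took its adjusted p to between 0.0831 and 0.175. XLOC_001315 differed by -5.36 ± 0.67 and XLOC_004800 by -4.89 ± 0.62, both with an edgeR adjusted p of 0.0271. Each lost its call under 9 of the 17 alternatives, where the adjusted p of XLOC_001315 was 0.0745 to 0.239 and that of XLOC_004800 was 0.0745 to 0.255 (edgeR). Calls on XLOC_012214 (-5.17 ± 0.74, edgeR adjusted p = 0.0414), XLOC_011845 (-6.38 ± 0.76, 0.0249) and XLOC_008477 (-8.85 ± 1.03, 0.0249) were likewise made. The first 2 of these lost their call under 9 of the 17 alternatives, at adjusted p of 0.0983 to 0.359 and 0.0619 to 0.239, and XLOC_008477 under 8, at 0.0745 to 0.239 (edgeR). XLOC_014164, at -4.76 ± 0.93, did not pass (edgeR adjusted p = 0.124), nor did XLOC_011560, at 2.38 ± 1.24 (edgeR adjusted p = 0.760).

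The number of members called against the unrelated pools changed with the pools fitted, also with isolated pools, which this contrast does not compare. It was 63 without brother pool 1 and 59 without unrelated pool 1, the pool in which the members were low, where 334 and 77 of all loci were called lower. Without unrelated pool 2 it was 7, and it was 5 when unrelated pool 3 or an isolated pool was dropped. Dropping brother pool 2 or brother pool 3 left 1 call. Over all loci tested the counts called lower under these settings were also 7, 5 and 1. In size, the 74 members present in unrelated pools 2 and 3 all had summed counts over 2-fold lower under a brother than under an unrelated male, and 56 were over 8-fold lower. Their median was 22.9-fold lower, with loci of no counts taken at their bound, and the smallest difference was 3.95-fold. These 74 were kept for their level in unrelated pools and chosen for low brother pools, so such ratios follow largely from the choice. In the 3 members left out, the ratio of unrelated to brother was 0.203 (XLOC_011560), 0.427 (XLOC_007260) and 0.366 (XLOC_006038). The highest ratio, 1553-fold, was that of XLOC_005068, named after its values were seen, and rested on 1 brother count (exact 95% interval 278 to 61379).

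Courtship by an unrelated male was then set against isolation, in which the isolated pools had entered the choice of members. None of the 75 members was called in either direction, and 0% of the 15486 loci tested were called lower (edgeR, adjusted p under 0.05). At an unadjusted p under 0.05, 2 members were lower and none higher. These were XLOC_011560 and XLOC_003147; XLOC_003147 differed by -1.41 ± 0.44 (edgeR adjusted p = 0.347). DESeq2 called no member either, but gave an adjusted p to only 15 of them; over all loci it called 227 lower, and edgeR found 873 lower at an unadjusted p under 0.05. The median log2 difference was -0.27 over the members and -0.01 over all loci tested. Every unrelated pool lay below every isolated pool for 4 of the 75 members (XLOC_011560, XLOC_001544, XLOC_006956 and XLOC_003147, named after their values were seen), and for 12.2% of the loci tested. XLOC_011560 differed by -5.74 ± 1.31 (edgeR adjusted p = 0.244). Its edgeR adjusted p was 0.0289 once brother pool 1 was dropped, and 0.0324 in a fit of the unrelated and isolated pools alone. Under these settings 369 and 504 of all loci were called lower, so XLOC_011560 was 1 of 369 and 1 of 504.

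Of the contrast that chose the members, brother against isolated, nothing is read. For completeness, 63 of the 75 members were called lower, where 1.65% of the loci tested were (edgeR, adjusted p under 0.05). Dropping brother pool 3 left 1 of these calls. Dropping isolated pool 1 or isolated pool 3 left 5, and dropping isolated pool 2 left 38. There were 39 in the fit that left out unrelated pool 2 and 25 in the one that left out unrelated pool 3. Over all loci tested, 1 was called lower without brother pool 3, 5 without isolated pool 1 or 3, and 127 without isolated pool 2. The counts over all loci were 63 without unrelated pool 2 and 36 without unrelated pool 3. By summed counts the brother level was lower by at least 4.94-fold in each member, with a median of 26.7-fold and loci of no counts at their bound. The highest ratio was again that of XLOC_005068, at 1905-fold on 1 brother count (exact 95% interval 341 to 75263).

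The pattern was alike in both technical replicates of each pool, which the titles place in different sequencing runs and lanes. Over the 74 members present in unrelated pools 2 and 3, the median level in unrelated pools 1 to 3 was 28.1%, 136% and 97.4% of the isolated mean in the first technical replicates. It was 28.4%, 129% and 93.2% in the second. The brother pools' medians were 2.70%, 2.99% and 3.75% in the first and 2.51%, 2.83% and 2.32% in the second. The rule applied to the first technical replicates alone found 73 loci, and to the second alone 71, of which 68 were members in each case.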

How the data were processed

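The authors deposited 1 table of raw counts per locus for 18 libraries; the submitters' processing notes name Trimmomatic 0.36, TopHat, Cufflinks and HTSeq. The genome build, the annotation and the handling of strand and of shared reads were not given in the sources used here. Poly(A) RNA was made into stranded libraries and read as 125 bp pairs, per the labels' protocols. Columns were matched to samples by condition, replicate number and the letter of the second technical replicate; columns headed Female, with no kin term, were read as the isolated group.

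Technical replicates were summed to 9 pools, and CPM is the count over the pool total. The test was edgeR 4.0.16 (R 4.3.3) with filterByExpr, TMM scaling, 1 coefficient per group and Benjamini-Hochberg adjustment over all 15486 loci tested. It was tried on simulated data in which loci were raised in the brother group, which does not cover losses like those of the members. The SE given with a log2 difference, also as ±, was back-calculated as its absolute value over the square root of the test's F statistic. DESeq2 1.42.0 was an alternative. Intervals of ratios are exact binomial intervals of summed counts.

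Members and lists were chosen with earlier results of these data known. Named were the 6 members with the highest isolated mean, 3 per class of presence in unrelated pools, up to 3 without brother counts, up to 4 called in unrelated against isolated pools, up to 3 each with the widest spread over isolated pools and (from 5 CPM) over unrelated pools, and 3 loci on each side of the threshold. Other loci, among them those of the closing observations, were named after their values were seen.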

Additional observations from a re-analysis of the deposited data

Results flagged for a closer look

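The difference from isolated pools was unequal between brother and unrelated pools for 27 of the 75 members fitted. They were called lower in the test of brother against unrelated pools (edgeR, adjusted p under 0.05), as were 0.187% of all 15486 loci tested. Since the brother pools entered the choice of the members, this is no independent support. Among the members named, the log2 differences, brother minus unrelated, were -9.99 for XLOC_010657, -5.36 for XLOC_001315, -4.89 for XLOC_004800, -7.29 for XLOC_004854, -5.17 for XLOC_012214, -6.38 for XLOC_011845 and -8.85 for XLOC_008477. All of these but XLOC_010657 lost the call in 4 to 9 of the 17 alternatives. The low values of unrelated pool 1 were described and not tested.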

How the results depend on the processing

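The rule found 140 loci with the threshold at 0.5 times the isolated mean, 48 at 0.1 times, 51 with a minimum of 1 CPM and 125 with a minimum of 0.1 CPM. It found 75 with TMM-scaled CPM and 74 to 110 when single brother or isolated pools were left out. Members called lower in brother than in unrelated pools numbered 1 when these groups were fitted alone (XLOC_010657), 69 with DESeq2, 14 with the first technical replicates alone, and 1 to 63 when single pools were left out. Members called lower in unrelated than in isolated pools numbered 1 (XLOC_011560) when these groups were fitted alone, and 0 to 1 when single pools were left out. Of all loci, 504 were called lower in unrelated pools when these groups were fitted alone. For brother against isolated pools the number of members called lower ranged from 1 to 71 without single pools. Over all loci tested, 29 were called lower in brother than in unrelated pools. That count was 1 with these groups fitted alone, 134 with DESeq2, 14 with the first technical replicates alone and 1 to 334 without single pools. In brother against isolated pools 255 of all loci were called lower, against 848 with DESeq2 and 1 to 1367 without single pools. The median unrelated level ranged from 63.5% to 112% of the isolated mean without single pools. With a replicate block added to the fit, 3 members were called lower against unrelated pools, 27 against isolated pools, and 0 in unrelated against isolated pools. Over all loci tested with that block, the counts called lower were 3, 33 and 0. Same-numbered pools were compared by their departures from the group means. The correlations ran from -0.39 to 0.24, with 0 pools closest to their own number in both other groups, and the replicate numbers were treated as names only. For brother against unrelated pools the alternatives were followed in 9 of the named loci. The 7 that were called lost the call in 48 of 119 values, the 2 that were not gained one in 3 of 34, and 0 turned their direction. The causes of these changes were not tested. Most members had under 2 CPM, so residual levels in brother pools rest on few counts.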

Other observations

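The same rule was applied to the other pairs of groups as a description. In the group where loci are present it asks for a mean, which a single high pool can supply. How many loci rested on a single pool was not counted, so the numbers are not gains or losses in every pool. It found 62 loci nearly absent in brother pools relative to unrelated pools, 46 nearly absent in unrelated relative to brother pools, and 4 nearly absent in unrelated relative to isolated pools, of which 3 were members and the other was XLOC_010946. It found 106 loci nearly absent in isolated relative to brother pools and 3 nearly absent in isolated relative to unrelated pools. XLOC_007997 had 5.55, 1.67 and 69.6 CPM in unrelated pools 1 to 3 and 1.17, 2.91 and 3.68 CPM in isolated pools. XLOC_015903 had 0.213, 1.95 and 6.83 CPM in unrelated pools and 0.594, 0.201 and 0.324 CPM in isolated pools. Only in the third, XLOC_009335, did all unrelated pools (1.88, 1.68 and 2.17 CPM) lie above all isolated pools (0.289, 0.413 and 0.162 CPM). Counted pool by pool against the isolated mean, 152, 196 and 160 of the 12503 loci lay below 25% in brother pools 1 to 3, 61, 19 and 27 in unrelated pools 1 to 3, and 13, 9 and 11 in isolated pools 1 to 3, whose own values set that mean.

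Few members had consecutive identifiers, and the sources used here do not give how identifiers relate to position. Counting the identifier 1 above and 1 below each member gave 154 neighbours, some counted more than once; 6 of these were members (3.90%, while members made up 0.460% of all loci), formed by 5 loci. They were XLOC_000175 with XLOC_000176, and XLOC_000397, XLOC_000398 and XLOC_000399 in a row. XLOC_000397 had 0.0948, 0.0291 and 0.0292 CPM in brother pools, 0.198, 1.65 and 1.33 CPM in unrelated pools and 1.41, 0.708 and 1.03 CPM in isolated pools. The next identifier, XLOC_000398, had 0.0542, 0.0582 and 0.0292 CPM in brother pools, 0.167, 1.30 and 0.985 CPM in unrelated pools and 1.38, 0.873 and 0.917 CPM in isolated pools. In XLOC_000399 unrelated pool 1 was less low, at 0.851 CPM against 2.25 and 1.63 CPM in unrelated pools 2 and 3. Of 90 neighbours that were not members and had an isolated mean of at least 0.5 CPM, 1, XLOC_003555, had every brother pool under 50% of that mean, and the median brother level of the 90 was 101% of the isolated mean.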
